A study of Bombyx mori with 9 samples.

Results

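The sericin genes Ser1, Ser2 and Ser3 were followed across silk gland RNA-seq libraries of 3 Philippine-reared strains of the mulberry silkworm Bombyx mori. They were chosen by name, 3 of the 16674 genes in the count table. Ser2 and Ser3 are listed under their own symbols. Ser1 is listed as LOC101740082, which a RefSeq gene table (assembly ASM3026992v2) pairs with the synonyms ser1 and sericin1B. All 3 passed the filter on low counts and were among the 7610 genes tested.

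Sericins are the serine-rich, glue-like proteins that coat the fibroin core of the silk thread. They are made in the middle silk gland, while the fibroins are made in the posterior silk gland, and both are spun together. In silkworms, Ser1 and Ser3 products are known mainly from the cocoon, and Ser2 products from the silk that younger larvae spin and from the non-cocoon silk of the last instar.

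The libraries came from whole silk glands of larvae on day 3 of instar 5, 1 larva per library. LAT51 larvae were reared at CAR, the cooler site, and MO204 and DMMMSU119 larvae at TCMO, the hotter site, with 3 libraries per strain. LAT51 and MO204 were classed by the rearing facilities as priority strains and DMMMSU119 as a poorly performing strain, on rearing performance and not on silk yield. Of the strains used here only LAT51 came from CAR, so strain and site cannot be told apart for it.

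Library totals lay between 4527847 and 11641130 counts in genes. The fibroin genes FIBH, Fib-l and P25 took between 6.65% and 29.6% of the counts, and all 3 sericin genes had counts in every library. A gland is a mixture of cells, so fewer middle gland cells and less sericin RNA per cell cannot be told apart. Marker genes of the fat body, the tissue that lies against the gland and makes storage proteins and lipoproteins, were summed over 8 genes. They came to between 79 and 1454 counts in LAT51, between 870 and 6349 in MO204 and between 18818 and 302648 in DMMMSU119.

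Ser3 had the widest range of the sericins. Among LAT51 larvae, 18 Ser3 counts fell in library LAT51-1, 46 in LAT51-2 and 57 in LAT51-4. Among MO204 larvae, 578 Ser3 counts fell in MO204-1, 508 in MO204-3 and 134 in MO204-4. Among DMMMSU119 larvae, 27516 Ser3 counts fell in DMMMSU-0, 123509 in DMMMSU-2 and 102589 in DMMMSU-4. No library of a strain reached into the range of another strain, and the order was LAT51, MO204, DMMMSU119 from low to high.

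Ser3 was thus a gene of few reads in LAT51 and one of the most counted genes in DMMMSU119. Ordered by count within a library, Ser3 stood at places 6460, 5622 and 3635 in LAT51, at 1399, 745 and 3271 in MO204, and at 39, 13 and 12 in DMMMSU119. Its share of all counts was at most 0.00126% in LAT51 (Wilson 95% interval 0.000972 to 0.00163%, LAT51-4), at most 0.0110% in MO204 (interval 0.0101 to 0.0120%, MO204-3) and between 0.454% and 1.28% in DMMMSU119. Such intervals cover counting error only, since reads are not independent molecules.

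Ser1 encodes a main sericin of the cocoon. In LAT51 the Ser1 count was 47173 in LAT51-1, 27610 in LAT51-2 and 66685 in LAT51-4. For MO204 larvae it came to 117088 in MO204-1, to 47724 in MO204-3 and to 206182 in MO204-4. For DMMMSU119 larvae it was 168749 in DMMMSU-0, 349228 in DMMMSU-2 and 207576 in DMMMSU-4. In CPM, counts relative to library totals scaled by the trimmed mean of M-values (TMM), Ser1 averaged 6057 ± 5084 in LAT51, 12889 ± 8389 in MO204 and 57196 ± 25381 in DMMMSU119 (SD, n = 3 each). The lowest DMMMSU119 library, at 38262 CPM, stood above the highest MO204 library, at 22570 CPM, whereas LAT51 and MO204 overlapped.

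Ser2 was the most even of the 3 on the CPM scale. Its counts were 702674, 581132 and 290294 in LAT51, 353050, 200646 and 389611 in MO204, and 115928, 137889 and 114869 in DMMMSU119, in the same library order. Ser2 was the gene with the most counts in all 3 LAT51 libraries, stood at place 2 in all 3 MO204 libraries and at places 7, 10 and 11 in DMMMSU119. In TMM CPM it averaged 52837 ± 16413 in LAT51, 33471 ± 8786 in MO204 and 29211 ± 7000 in DMMMSU119 (SD, n = 3 each). As a share of all counts the spread between strains was wider, at 7.38% ± 2.99 in LAT51, 4.59% ± 0.918 in MO204 and 1.52% ± 0.358 in DMMMSU119 (SD, n = 3 each). The 2 scales differ because the TMM factors of DMMMSU119 libraries were 0.421 to 0.591, against 1.26 to 1.53 for the 6 others.

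**Figure D1:**
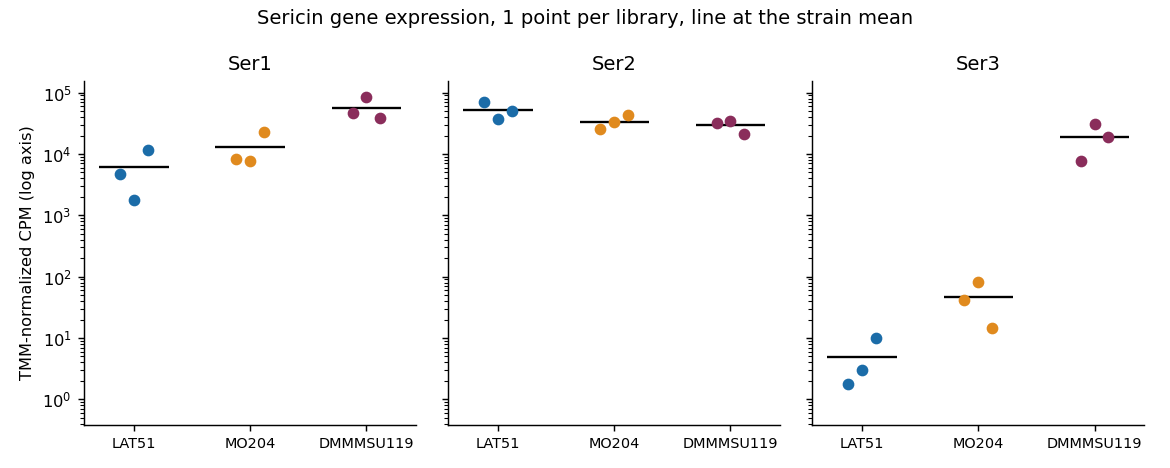
TMM-normalized CPM (log axis) of Ser1, Ser2 and Ser3 in the 9 libraries, 1 point per library, with a line at the strain mean. Ser2 stays between 21173 and 70156 CPM in every library, while Ser3 lies between 1.80 and 9.98 CPM in LAT51 and between 7711 and 30428 CPM in DMMMSU119.

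The question of the study was how strains from the cooler and the hotter site differ in the silk gland, and each pair of strains was tested with edgeR's quasi-likelihood test at an adjusted p under 0.1. In LAT51 vs. DMMMSU119, 38.0% of all genes were called, 18.2% higher and 19.8% lower, and the sericins counted 3 of 3, with Ser2 higher and Ser1 and Ser3 lower in LAT51. The 2 groups did not overlap in CPM for any of the 3, as was so for 40.7% of all genes. The log2 fold change (log2FC) of Ser3 was -11.94 ± 1.20 (SE; edgeR adjusted p = 0.000766), which was place 5 by size of change among all genes tested. For Ser1 the log2FC was -3.24 ± 0.725 (SE; edgeR adjusted p = 0.0136). Ser2 had a log2FC of 0.86 ± 0.341 (SE; edgeR adjusted p = 0.0882). With 1 of the 9 libraries removed at a time, 3 fits still called Ser2, and the adjusted p reached 0.212 without DMMMSU-4. Scaled by library size alone, Ser2 was at 2.28 and Ser1 at -1.82, against a median of all genes that moved from 0.01 to 1.39 with that scaling.

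In MO204 vs. DMMMSU119, 33.0% of all genes were called, 16.3% higher and 16.7% lower, and of the sericins 2 of 3, both lower in MO204. The same 2 did not overlap in CPM, as was so for 41.7% of all genes. Ser3 had a log2FC of -8.69 ± 1.06 (SE; edgeR adjusted p = 0.00253). Ser1 had a log2FC of -2.15 ± 0.694 (SE; edgeR adjusted p = 0.0519). The Ser1 call was lost without MO204-1, MO204-3 or DMMMSU-2 (edgeR adjusted p = 0.168, 0.157 and 0.161) and with library size alone, at -0.69 (edgeR adjusted p = 0.307). Ser2 had a log2FC of 0.20 ± 0.339 (SE; edgeR adjusted p = 0.697), and with library size alone it was at 1.60 (edgeR adjusted p = 0.00178), where the median of all genes stood at 1.43.

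In LAT51 vs. MO204, 3.07% of all genes were called and 0 of the 3 sericins (1 of 3 at an unadjusted p under 0.05, where 13.0% of all genes passed, and 1 of 3 with DESeq2, which called 5.66%). Ser3 was just outside the threshold, with a log2FC of -3.25 ± 0.840 (SE; edgeR adjusted p = 0.101). Its groups did not overlap, between 1.80 and 9.98 CPM in LAT51 and between 14.7 and 82.6 CPM in MO204, as was so for 19.5% of all genes. DESeq2 gave Ser3 a log2FC of -3.20 with an adjusted p of 0.00181. The log2FC was -1.09 ± 0.673 for Ser1 and 0.66 ± 0.340 for Ser2 (SE; edgeR adjusted p = 0.602 and 0.474).

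In CAR vs. TCMO, which sets the 3 LAT51 libraries against the 6 of both other strains, 1.48% of all genes were called and 0 of the 3 sericins (2 of 3 at an unadjusted p under 0.05, where 15.7% of all genes passed, and 2 of 3 with DESeq2, which called 10.2%). The log2FC of Ser3 was -10.93 ± 3.19 (SE; edgeR adjusted p = 0.184) although no CAR library reached the TCMO range, which ran from 14.7 to 30428 CPM, and 8.67% of all genes were without overlap. Set against the average of the MO204 and DMMMSU119 means in the model with 1 mean per strain, Ser3 was at -7.60 (edgeR adjusted p = 0.00409) and Ser1 at -2.16 (edgeR adjusted p = 0.0701). Ser1 had a log2FC of -2.53 ± 0.972 and Ser2 of 0.75 ± 0.415 by site (SE; edgeR adjusted p = 0.242 and 0.410).

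**Figure D2:**
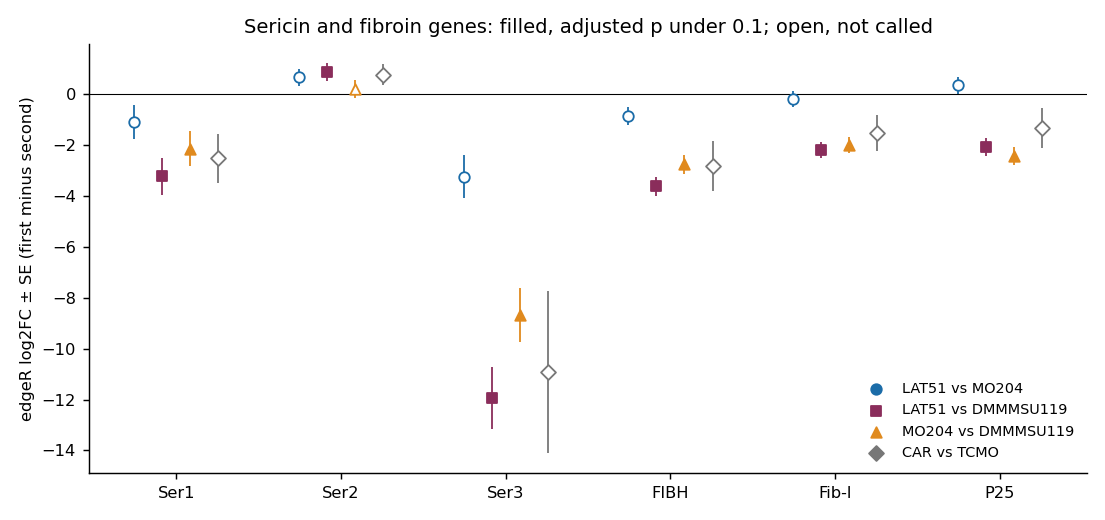
edgeR log2FC ± SE of the sericin genes and of the fibroin genes FIBH, Fib-l and P25 in the 4 comparisons, with filled symbols for an adjusted p under 0.1. Ser3 at -11.94 and -8.69 lies far below the fibroin genes, and Ser2 is the only one of the 6 genes above 0 in all 4 comparisons.

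The make-up of the sericin counts showed the same contrast in a form that does not depend on how libraries are scaled. Ser2 made up 90.2% ± 7.71 of the sericin counts in LAT51, 73.7% ± 7.71 in MO204 and 28.9% ± 7.46 in DMMMSU119 (SD, n = 3 each). Ser1 made up 9.83% ± 7.71 in LAT51, 26.2% ± 7.80 in MO204 and 53.4% ± 4.22 in DMMMSU119 (SD, n = 3 each). Ser3 made up 0.00864% ± 0.00685 in LAT51, 0.116% ± 0.0910 in MO204 and 17.7% ± 7.96 in DMMMSU119 (SD, n = 3 each). Within DMMMSU119 the Ser3 part was 8.81% in DMMMSU-0, 20.2% in DMMMSU-2 and 24.1% in DMMMSU-4.

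**Figure D3:**
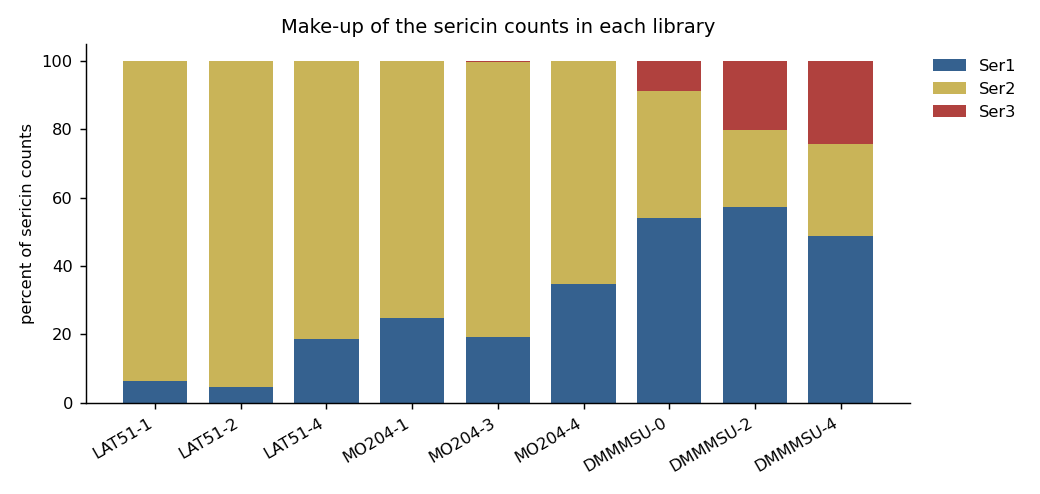
Percent of the sericin counts that fell on Ser1, Ser2 and Ser3 in each library, as stacked bars. Ser2 holds between 65.4% and 95.5% in LAT51 and MO204 libraries, and Ser3 is visible in DMMMSU119, between 8.81% and 24.1%.

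Ratios between sericin counts were compared over the 3 strains with exact permutation tests on log2 values, 5 tests in all. Each ratio sets 2 genes of 1 library against each other, so that library scaling cancels. The ratio is one of reads and not of molecules. Differences between strains in transcript mix, repeat length or loss of reads with several matches do not cancel and were not tested. With 3 libraries per strain, the test over 3 strains could reach 0.00357 and a pair of strains could not go below 0.10.

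Ser2 outnumbered Ser3 by 39037, 12633 and 5093 counts to 1 in LAT51-1, LAT51-2 and LAT51-4. The ratio was 611 in MO204-1, 395 in MO204-3 and 2908 in MO204-4. It was 4.21 in DMMMSU-0, 1.12 in DMMMSU-2 and 1.12 in DMMMSU-4. The 3 strains did not overlap, and the exact permutation test gave p = 0.00357, the smallest it can give (adjusted p = 0.00893). On the log2 scale the mean ratio differed by 3.94 in LAT51 vs. MO204, by 12.93 in LAT51 vs. DMMMSU119 and by 9.0 in MO204 vs. DMMMSU119 (exact permutation p = 0.10 each). By site the difference was 8.43 (exact permutation p = 0.0238, two-sided, the smallest that test can give). That test pools MO204 and DMMMSU119 larvae in TCMO, and it does not tell site from strain.

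The Ser1 to Ser2 ratio ran the other way. It was 0.0671, 0.0475 and 0.230 in LAT51, 0.332, 0.238 and 0.529 in MO204, and 1.46, 2.53 and 1.81 in DMMMSU119. Ser2 thus had more counts than Ser1 in all 6 LAT51 and MO204 libraries and fewer in all 3 DMMMSU119 libraries. The strains did not overlap (exact permutation p = 0.00357, adjusted p = 0.00893), with log2 differences of -1.94 in LAT51 vs. MO204, -4.38 in LAT51 vs. DMMMSU119 and -2.44 in MO204 vs. DMMMSU119.

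Ser1, too, outnumbered Ser3 in every library. The ratio was 2621, 600 and 1170 in LAT51, 203, 93.9 and 1539 in MO204, and 6.13, 2.83 and 2.02 in DMMMSU119. LAT51 and MO204 overlapped through MO204-4, and both lay above DMMMSU119 (exact permutation p = 0.0107, adjusted p = 0.0134, and p = 0.075 on linear values).

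For the 3 sericins together, the order of the strains depended on the scale. Their share of all counts was 11.4%, 5.23% and 7.89% in LAT51, 5.11%, 5.38% and 8.58% in MO204, and 5.15%, 6.33% and 4.49% in DMMMSU119. On this scale the strains overlapped, and the test over the 3 strains did not pass (exact permutation p = 0.382, adjusted p = 0.382). The log2 difference in mean share was 0.33 in LAT51 vs. MO204, 0.56 in LAT51 vs. DMMMSU119 and 0.23 in MO204 vs. DMMMSU119, against SDs within strains of 0.25 to 0.57. Summed in TMM CPM, the sericins had 74867, 39298 and 62532 in LAT51, 33514, 40470 and 65233 in MO204, and 87489, 150435 and 78345 in DMMMSU119. DMMMSU119 was above both other strains on that scale with no overlap, at log2 differences of -0.83 in LAT51 vs. DMMMSU119 and -1.18 in MO204 vs. DMMMSU119, in an alternative chosen after seeing the data (exact permutation p = 0.05 over the 3 strains, two-sided exact permutation p = 0.10 for each pair).

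**Figure D4:**
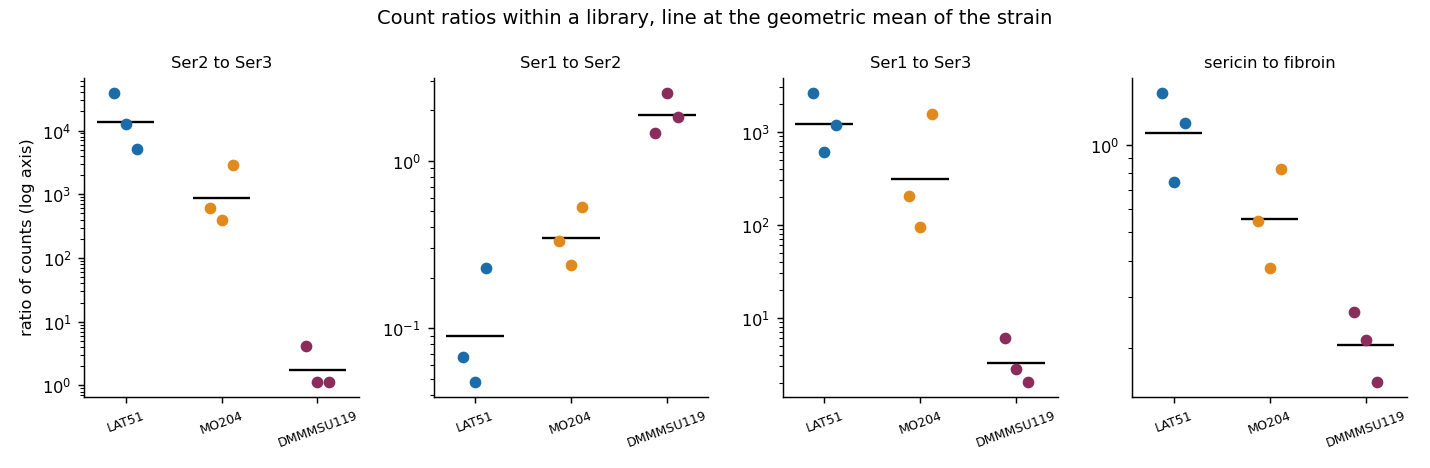
Ratios of counts within a library (log axes) for Ser2 to Ser3, Ser1 to Ser2, Ser1 to Ser3 and all sericins to all fibroin genes, 1 point per library, with a line at the geometric mean of the strain. In the Ser2 to Ser3 panel LAT51 lies between 5093 and 39037 and DMMMSU119 between 1.12 and 4.21.

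Against the fibroin genes, the sericins held less of the silk RNA in DMMMSU119. FIBH and Fib-l encode the heavy and light chains of fibroin, and P25 a glycoprotein of the same complex. Sericin counts divided by the summed counts of these genes gave 1.51, 0.743 and 1.19 in LAT51, 0.546, 0.378 and 0.826 in MO204, and 0.267, 0.214 and 0.153 in DMMMSU119. DMMMSU119 stood apart from both other strains, which overlapped (exact permutation p = 0.00714, adjusted p = 0.0119).

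All 3 fibroin genes were called lower in LAT51 and in MO204 than in DMMMSU119, beside 19.8% and 16.7% of all genes. In LAT51 vs. DMMMSU119 the log2FC was -3.63 ± 0.382 for FIBH, -2.20 ± 0.323 for Fib-l and -2.08 ± 0.349 for P25 (SE; edgeR adjusted p = 0.000829, 0.00276 and 0.00456). In MO204 vs. DMMMSU119 it was -2.77 ± 0.367 for FIBH, -2.0 ± 0.321 for Fib-l and -2.42 ± 0.354 for P25 (SE; edgeR adjusted p = 0.00285, 0.00587 and 0.00402). The Ser1 values of -3.24 and -2.15 were in this range, the Ser3 values were below it and the Ser2 values above it. None of the fibroin genes was called in LAT51 vs. MO204 or in CAR vs. TCMO, where 3.07% and 1.48% of all genes were called. Of these genes only FIBH did not overlap in CPM in either comparison, as was so for 19.5% and 8.67% of all genes. Under alternative processing, Fib-l in MO204 vs. DMMMSU119 lost its call in 1 setting. The other fibroin calls against DMMMSU119 were kept in every setting. In CAR vs. TCMO, FIBH passed the threshold in 2 alternative settings and Fib-l in 1. As a share of all counts Fib-l averaged 1.87% in LAT51, 2.19% in MO204 and 3.23% in DMMMSU119.

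Of 14 listed transcription factors known from silk gland development, hormone response or silk gene control, 7 passed the filter on low counts. In LAT51 vs. DMMMSU119, 2 of the 7 were called higher and 4 lower, beside 18.2% and 19.8% of all genes, with a median log2FC of -0.58 against 0.01 over all genes. Br-c (Broad-Complex) and Kr-h1 (Krüppel homolog), which act in ecdysone and juvenile hormone response, were higher in LAT51 at 1.60 and 3.62 (edgeR adjusted p = 0.0618 and 0.0133). The basic helix-loop-helix factor dimm was lower at -2.09 (edgeR adjusted p = 0.0318), although its 2 groups overlapped in CPM. The ecdysone receptor EcR, its partner USP and the basic helix-loop-helix factor sage were lower at -1.28, -1.35 and -0.58 (edgeR adjusted p = 0.0332, 0.0191 and 0.0982), but with library size alone they stood at 0.11, 0.061 and 0.84. With 1 of the 9 libraries removed at a time, the call was lost in 3 fits for Br-c and in 2 for dimm. It was lost in 2 for EcR, in 7 for sage and in 0 for Kr-h1 and USP. Kr-h1 had between 0 and 2 counts in the DMMMSU119 libraries.

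In MO204 vs. DMMMSU119, again 2 of the 7 factors were called higher and 4 lower, beside 16.3% and 16.7% of all genes. Br-c was at 1.44 and Kr-h1 at 3.34 (edgeR adjusted p = 0.0943 and 0.0219). The lower ones were dimm at -1.95, EcR at -1.27, USP at -1.20 and sage at -0.94 (edgeR adjusted p = 0.0466, 0.0409, 0.0335 and 0.0272), of which EcR, USP and sage turned to 0.15, 0.23 and 0.49 with library size alone. With 1 of the 9 libraries removed at a time, the call was lost in 8 fits for Br-c and in 4 for dimm. It was lost in 3 for EcR and for USP, in 1 for sage and in 0 for Kr-h1. None of the factors was called in LAT51 vs. MO204 or CAR vs. TCMO. The contrasts LAT51 vs. DMMMSU119 and MO204 vs. DMMMSU119 share the DMMMSU119 libraries, so their calls are not independent.

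Serine is the leading residue of sericin, and Psat1 encodes phosphoserine aminotransferase, a step of serine synthesis. Psat1 averaged 117 CPM in LAT51 and 882 CPM in DMMMSU119, a log2FC of -2.91 ± 0.319 (SE; edgeR adjusted p = 0.000901). In MO204 vs. DMMMSU119 its log2FC was -2.79 (edgeR adjusted p = 0.00148). It was 1 of 2 matched genes of serine and glycine supply, and was called lower beside 19.8% and 16.7% of all genes. The other went the opposite way, with a log2FC of 0.46 and 0.40 in the same comparisons, and was not called in any comparison.

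The genes whose pattern over the 9 libraries was most like a sericin were found by the mean absolute difference in centred log2 CPM, where 0 would be the same pattern. For Ser3 these were LOC101746050 (0.553), Spi2 (0.745), LOC101746887 (0.764), LOC119629744 (0.969) and LOC119630067 (0.970). Spi2 had 9, 5 and 48 counts in LAT51, 228, 62 and 53 in MO204 and 28609, 37529 and 30921 in DMMMSU119. The distance of Ser3 was 3.36 from Ser1 and 4.85 from Ser2.

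For Ser1 the nearest were GlcNAcase1 (0.389), LOC101737541 (0.438), Hsp23.7 (0.450), LOC101737464 (0.459) and serpin-28 (0.466). Ser1 was nearer to the fibroin gene FIBH, at 0.683, than to Ser2, at 1.61. For Ser2 the nearest were LOC101744062 (0.153), Mre11 (0.177), LOC101738072 (0.177), LOC101743079 (0.180) and LOC101739345 (0.180). Picked for their likeness to Ser2, these genes too were highest on average in LAT51. Mre11, a DNA repair nuclease, averaged 48.4 CPM in LAT51, against 27.7 in MO204 and 27.9 in DMMMSU119.

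**Figure D5:**
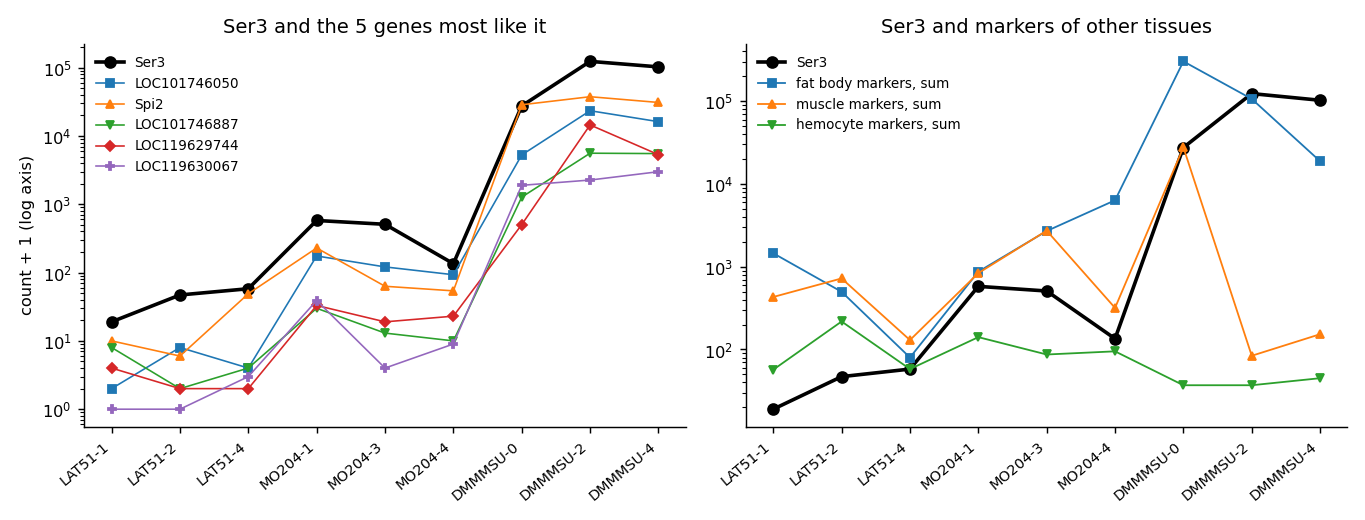
Counts plus 1 (log axis) by library, for Ser3 with the 5 genes nearest to it in pattern (left) and with summed markers of fat body, muscle and hemocytes (right). In DMMMSU119 the fat body sum is highest in DMMMSU-0, at 302648, and lowest in DMMMSU-4, at 18818, while the Ser3 count is 27516 in DMMMSU-0 and 102589 in DMMMSU-4.

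Most fat body markers, too, differed between DMMMSU119 and the other strains. In LAT51 vs. MO204 and in CAR vs. TCMO, 0 of the 8 were called, beside 3.07% and 1.48% of all genes. Of the 8 fat body genes, 7 were called lower in LAT51 than in DMMMSU119, beside 19.8% of all genes, and 6 were called lower in MO204 than in DMMMSU119, beside 16.7%. The storage protein gene Sp1 was called in both, although its groups overlapped in CPM in both. The vitellogenin gene VG was the exception in direction, with a log2FC of 2.87 in LAT51 vs. DMMMSU119 and 2.09 in MO204 vs. DMMMSU119, and it was not called (edgeR adjusted p = 0.133 and 0.273). The sum of the 8 was 13.8 to 145 CPM in LAT51, 61.9 to 695 CPM in MO204 and 3469 to 84814 CPM in DMMMSU119. The lipoprotein gene Lp-c21 was at 0 counts in LAT51-4, and VG was at 0 counts in MO204-4 and DMMMSU-4. Within DMMMSU119 the fat body sum was 84814 CPM beside 7711 CPM of Ser3 in DMMMSU-0, 26223 beside 30428 in DMMMSU-2 and 3469 beside 18910 in DMMMSU-4. Without DMMMSU-0, the library with the highest sum, Ser3 in LAT51 vs. DMMMSU119 was at -12.30 (edgeR adjusted p = 0.000744), with fat body sums in the remaining DMMMSU119 libraries still above those of LAT51. The 3 muscle markers summed to 27699 counts in DMMMSU-0, of which the actin gene A1 gave 27557, and to between 83 and 2727 in the other libraries. A1 was called lower in LAT51 than in DMMMSU119, with a log2FC of -10.81 (edgeR adjusted p = 0.0295). Most of that difference lay in DMMMSU-0, at 7723 CPM, against 12.1 in DMMMSU-2 and 6.45 in DMMMSU-4. A1 was at most 2.90 CPM in LAT51 libraries and between 15.9 and 397 CPM in MO204 libraries. The tropomyosin gene Tm had means of 35.9 (LAT51), 35.3 (MO204) and 17.6 CPM (DMMMSU119) and was not called. The 2 hemocyte markers summed to between 36 and 217 counts, and neither was called. The part of these tissues in the sericin differences was not tested.

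The genes beside Ser3 had few reads. In the gene table no gene overlaps a sericin gene, and the counted genes on either side of Ser3 had at most 5 counts in any library. Ser1 has 33 RefSeq transcripts in that table, Ser2 has 2 and Ser3 has 1, and the gene counts do not tell transcripts of 1 gene apart.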

How the data were processed

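RNA-seq of silk glands from 9 larvae was used, 3 per strain, grouped by strain and site as labelled. Libraries were made with a stranded mRNA kit. The authors trimmed the reads (fastp 0.20.0 after Trimmomatic 0.39), aligned them with HISAT2 2.1.0 and counted them per gene with featureCounts 1.4.6-p5, which gave the deposited raw counts. A RefSeq assembly is named for a separate STAR alignment. The genome build used with HISAT2, the strand setting and the treatment of reads with several matches are not given in the sources used here. Sericin and fibroin coding sequences are repetitive, so discarded multiple matches could lower their counts. In the STAR alignment, the authors reported a larger part of reads with several matches in DMMMSU119 than in LAT51 and MO204. Such a loss could thus differ between strains, and scaling would not remove it. Its size in these genes was not tested. The deposited log2 values equal log2 of the count divided by a DESeq2 size factor, plus 1, and served as an alternative with limma 3.58.1.

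Counts were filtered with filterByExpr, scaled by TMM and tested with edgeR 4.0.16 in R 4.3.3, with 1 mean per strain, or by site with TCMO as reference. Benjamini-Hochberg adjustment ran over 7610 genes, with calls at 0.1. SEs come from the F statistic. CPM used TMM-scaled totals, with a prior count of 2 on the log2 scale. Shares carry Wilson 95% intervals. Ratios were tested by exact permutation of 9 libraries in Python 3.11.15 with scipy 1.17.1. The scripts were tested on simulated data. Alternatives were other scalings, no filter, DESeq2 1.42.0, limma, a replicate block, only the libraries of a pair, and leaving out each library.

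The named genes are the sericins, the fibroin genes, the members of the transcription factor and serine supply lists that passed a test, and the 5 genes nearest to each sericin in pattern. The members and lists were chosen with earlier results of these data known. IDs were matched by symbol or synonym (14504 of 16674). No transcript lengths, sequences or coordinates are given.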

Additional observations from a re-analysis of the deposited data

Results flagged for a closer look

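Among the 6 TCMO libraries, 33 named genes and ratios were checked for a single library far from the others, and 5 were found. Chance gives about 1 group in 20 where the libraries are of 1 kind, but these pool MO204 and DMMMSU119, so that rate is no baseline here. MO204-4 had the highest Ser2 to Ser3 count ratio, 2908, and the highest Ser1 to Ser3 count ratio, 1539, against at most 611 and 203 in the other TCMO libraries. Both ratios rest on the 134 Ser3 counts of MO204-4, the fewest of the MO204 libraries. Of the genes nearest to a sericin in pattern 3 had 1 such library. GlcNAcase1, nearest to Ser1, had 53.0 CPM in DMMMSU-2. LOC119629744, near Ser3, had 3572 CPM in DMMMSU-2. LOC101738072, near Ser2, had 15.0 CPM in MO204-4.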

How the results depend on the processing

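Of 204 values of the sericin log2FC under alternatives, 178 kept their direction and side of the threshold, and none reversed. Ser3 in LAT51 vs. MO204 passed the threshold with library size alone (-3.33), only the libraries of the pair (-3.28), DESeq2 (-3.20) and limma (-3.21). Leaving out each library gave -4.24 to -2.53. Ser2 in LAT51 vs. DMMMSU119 missed it with no filter (0.99), only the pair (0.84) and limma (0.83), and ran from 0.63 to 1.07 without 1 library. Ser1 in MO204 vs. DMMMSU119 missed it with library size alone (-0.69), with -2.80 to -1.72 without 1 library. Ser2 there passed it with library size alone (1.60). In CAR vs. TCMO, Ser1 and Ser3 passed it against the average of the TCMO strains (-2.16 and -7.60) and with DESeq2 (-2.53 and -10.92).

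Genes called in LAT51 vs. MO204 were 234, against 99 with no filter and 477 with DESeq2 (78 to 307 without 1 library). In LAT51 vs. DMMMSU119 they were 2891, against 5657 with library size alone (1768 to 3201 without 1 library). In MO204 vs. DMMMSU119 they were 2513, against 5559 with library size alone (1257 to 2823). In CAR vs. TCMO they were 113, against 62 with library size alone, 45 with no filter, 1205 against the average of the TCMO strains and 924 with DESeq2 (16 to 130). The difference in sericin share in MO204 vs. DMMMSU119 turned to -0.035 outside the fibroin genes and to -1.18 in summed TMM CPM, a scale added after seeing the data, and ran from -0.0074 to 0.37 without 1 library. On that added scale it turned to -0.83 in LAT51 vs. DMMMSU119 and to -0.24 in CAR vs. TCMO. The permutation p of the Ser1 to Ser3 ratio was 0.075 on linear values. With library size alone, sage, EcR and USP turned to 0.84, 0.11 and 0.061 in LAT51 vs. DMMMSU119 and to 0.49, 0.15 and 0.23 in MO204 vs. DMMMSU119, as the median of all genes moved to 1.39 and 1.43. The cause of the other changes was not tested.

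Same-numbered libraries are different larvae, and their deviations from the strain means correlated between -0.151 and 0.229. The main fits did not pair them, and whether a number marks a shared batch was not tested. With a replicate block, calls numbered 29, 1843, 506 and 2 in the 4 comparisons in the above order, Ser2 in LAT51 vs. DMMMSU119 was at 0.89 (edgeR adjusted p = 0.375) and Ser1 in MO204 vs. DMMMSU119 at -2.30 (edgeR adjusted p = 0.318).

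Ser3 in LAT51 rests on 18 to 57 counts a library. With 3 larvae per strain, p-values between strains weigh the differences against the spread between these larvae. The p-values by site pool MO204 and DMMMSU119, so their spread also holds the difference between those strains.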
